A study of Homo sapiens with 11 samples.

Results

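The protocadherins and the other cadherins, apart from E-cadherin (CDH1) and N-cadherin (CDH2), were followed across 5 lines of a human retinal pigment epithelium (RPE) cell line. Members were chosen by symbol alone: names that are PCDH plus letters or digits, or CDH plus digits. The pattern matched 96 of 60605 features; CDH1 and CDH2 were left out, as were 6 symbols with the ending used for pseudogenes, which left 88 members. They comprise 16 genes of the alpha protocadherin cluster, 16 of the beta cluster, 22 of the gamma cluster, 13 protocadherins outside the clusters and 21 cadherins. In all, 51 members reached 10 normalised counts in at least 2 libraries and were tested; the other 37 were too low.

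Cadherins are membrane proteins with repeated extracellular domains that bind calcium and hold cells together, most often by binding the same cadherin on the next cell. Classical cadherins connect to actin through catenins, whereas protocadherins lack the catenin-binding tail. In the clustered protocadherins, each gene of the alpha and gamma clusters has its own promoter and its own large first exon, which is spliced to constant exons shared by the whole cluster; beta genes have no shared exons. Neurons switch on different sets of clustered genes, and the combination serves as an identity label at the cell surface. In the RPE, a single layer of pigmented cells behind the photoreceptors, cadherin junctions keep the layer closed.

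ARPE-19, an established human line derived from RPE, was made into stable lines that carried an open reading frame for GFP (3 libraries), Oct4 (2), Sox2 (2), Klf4 (2) or Oct4, Sox2 and Klf4 together (OSK, 2). Every line was sampled after 4 days of expression, and the GFP line is the labelled control. The library names of all 4 factor lines carry a tag, mC, that the GFP names lack and the labels do not explain, so whatever it stands for cannot be told apart from the factors in the comparisons with GFP. Polyadenylated RNA was sequenced, and each library held between 15053300 and 19791775 reads assigned to features. The labels do not say whether replicates are separate cultures or separate clones, so p-values measure the spread between these libraries only. In bulk RNA, fewer cells with a transcript and less transcript per cell cannot be told apart.

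The introduced genes followed the labels. POU5F1, which encodes Oct4, was at 66823 to 67326 normalised counts in the Oct4 line, at 19020 to 19542 with OSK and at most 446 elsewhere. SOX2 was at 29106 to 29141 in the Sox2 line and 17582 to 17764 with OSK, and KLF4 was at 22142 to 24205 in the Klf4 line and 24202 to 24470 with OSK. The OSK line therefore held less POU5F1 and SOX2 RNA than the lines with each factor alone. Of 16 RPE markers, 10 were at 10 normalised counts or more in every library and 3 (RPE65, DCT and TTR) were below 10 in every library. The RPE marker sum was 33589 to 37277 in GFP, 18536 to 19109 with Oct4 and 21545 to 22230 with Sox2. It was 26162 to 29330 with Klf4 and 16045 to 16328 with OSK. KRT8 and KRT18 made up most of it in every line. Means of PMEL, TYRP1, TYR, MITF, OTX2, RDH5 and SERPINF1 were lowest with Sox2. Those of KRT8, KRT18, BEST1, RLBP1, LRAT and MLANA were lowest with OSK. PMEL, for example, had a mean of 140 with Sox2, 612 with Oct4 and 809 with OSK.

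A pair of libraries stood apart, and their effect is given beside the results that rest on them. GFP replicate 1 had reads in 42956 features and OSK replicate 1 in 32493, against 25853 to 26971 in the other 9 libraries. Olfactory receptor genes, which are silent in most tissues, had at least 1 read in 67.7% of 405 cases in GFP replicate 1 and in 23.0% in OSK replicate 1, against 4.9% to 8.1% elsewhere. The cadherins showed the same library: 56 members reached 10 normalised counts in GFP replicate 1, against 39 to 46 in each of the others. Of the 37 untested members, 21 had their highest value in GFP replicate 1, and outside that library none exceeded 14.9. In 7 tested members GFP replicate 1 was over 2 times each of the other GFP libraries (CDH3, CDH16, CDH22, CDH23, CDH26, PCDH19 and PCDHGC5).

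**Figure D1:**
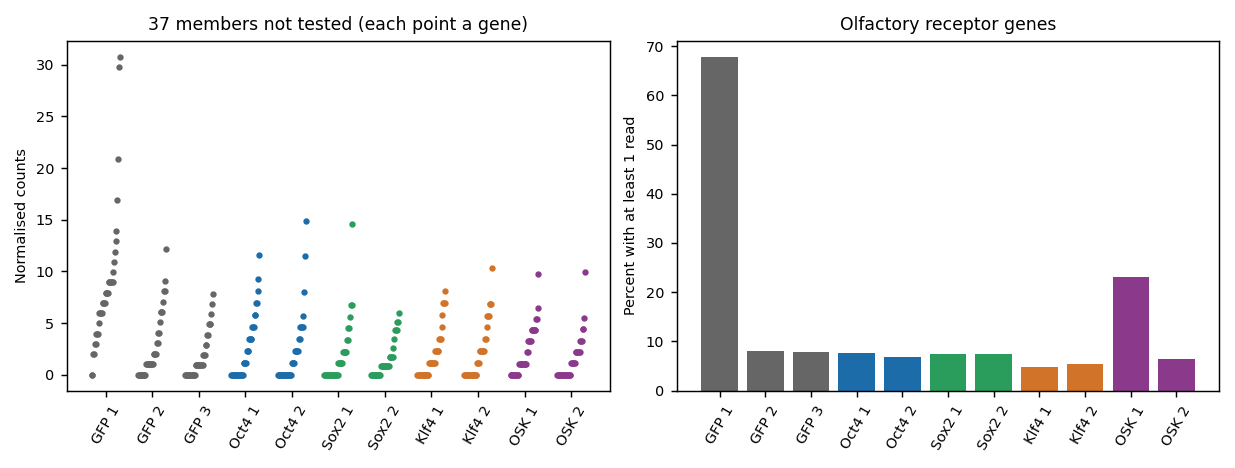
The left panel plots the normalised counts of the 37 untested members in each library, 1 point per gene, and the right panel the percentage of 405 olfactory receptor genes with at least 1 read. GFP replicate 1 holds the highest points, up to 30.8 for CDH15, and a bar at 67.7%, and OSK replicate 1 has the next bar at 23.0%.

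The first question was how many members each factor moved relative to GFP. With Oct4, 8 members rose and 7 fell of 51 tested (limma, adjusted p under 0.05 over all genes), and 37.3% of the 18828 genes tested were called in that comparison (20.1% higher, 17.2% lower). With Sox2, 6 rose and 18 fell, against 41.6% of all genes called; without Sox2 replicate 1 the 24 calls became 13 (5 higher, 8 lower). With Klf4, 3 rose and 13 fell, against 33.5%. With OSK, 6 rose and 18 fell, against 39.7%. The members' shares, 29.4%, 47.1%, 31.4% and 47.1%, lay within about 8 percentage points of the background. The 4 comparisons share the GFP libraries.

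The direction was less even than the number. Over all genes the calls split nearly equally, with 21.7% higher and 19.9% lower for Sox2, 17.6% higher for Klf4, and 19.7% higher and 20% lower for OSK. The median log2 difference over the tested members was -0.27 with Oct4, -0.50 with Sox2, -0.46 with Klf4 and -0.59 with OSK, against -0.02, -0.02, -0.02 and -0.01 over all genes tested. Many members are low and passed only through the libraries where they are high, so these medians describe the tested genes and support nothing further. Without GFP replicate 1 and OSK replicate 1, a setting chosen after seeing the data, 17, 25, 20 and 20 of 49 tested members were called with Oct4, Sox2, Klf4 and OSK. Across all 5 lines, the limma F test called 29 of 51 members, against 65.7% of all genes.

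**Figure D2:**
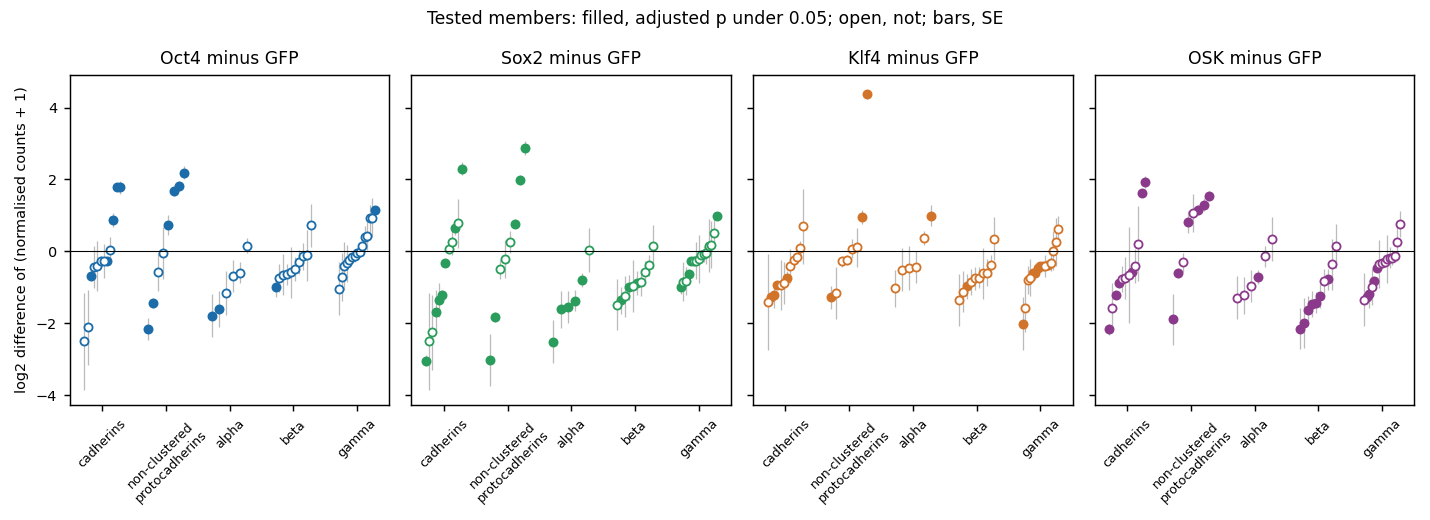
Each panel plots 1 line minus GFP, with the log2 difference of (normalised counts + 1) on the vertical axis and the tested members grouped by family; filled points passed an adjusted p of 0.05 and bars are standard errors. The upper outlier in the Klf4 panel is PCDH1 at 4.37, and the beta cluster points in the OSK panel lie mostly below 0.

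Among the cadherins proper, 12 were tested. In the Oct4 line 3 of them rose and 2 fell, in the Sox2 line 2 rose and 5 fell (3 fell without GFP replicate 1), in the Klf4 line 4 fell, and in the OSK line 2 rose and 4 fell. Over all genes, 20.1%, 21.7%, 17.6% and 19.7% were called higher and 17.2%, 19.9%, 16% and 20% lower in these 4 lines. The genes concerned differed in kind: CDH10 and CDH11 are type II classical cadherins, CDH4 is a type I classical cadherin of the retina and nervous system, and CDH13 and CDH17 lack the classical tail.

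CDH11, the type II cadherin of osteoblasts and mesenchyme, was high wherever Oct4 was introduced. It lies on chromosome 16, 64943753 to 65126112 on the minus strand (GRCh38, GENCODE 29). Its normalised counts were 2105, 2319 and 2412 in GFP, 8626 and 7088 with Oct4, and 7057 and 6994 with OSK. In the Sox2 libraries it was at 1718 and 1896, and in the Klf4 libraries at 1898 and 2214. All 4 libraries that carried Oct4 were thus near 3 times the GFP level or above, and all 7 others lay below the lowest of them. CDH11 rose 3.45-fold with Oct4 (log2 difference 1.78 ± 0.09 SE, limma adjusted p = 4.87e-10) and 3.08-fold with OSK (1.63, limma adjusted p = 1.27e-09). With Sox2 it was at 79.3% of GFP (limma adjusted p = 0.00788), and with Klf4 it did not pass (-0.15, limma adjusted p = 0.237). Fibroblast marker sums, mostly PDGFRB and COL1A1, were 13827 to 16408 in GFP, 10253 to 13192 with Oct4 and 5118 to 5909 with OSK. DCN was below 10 in every library. With Oct4, PDGFRB fell (log2 difference -0.39, limma adjusted p = 0.00578), and COL1A1, COL1A2 and PDGFRA did not pass. With OSK, PDGFRB and COL1A1 fell, and COL1A2 and PDGFRA did not pass. The part of fibroblast markers in the values of CDH11 was not tested.

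CDH10, a type II cadherin best known from brain, separated the lines in another way. It was at 50.6, 65.8 and 66.1 normalised counts in GFP and at 40.5 and 32.0 with Klf4. The Oct4 libraries held 204 and 219, the Sox2 libraries 284 and 319, and the OSK libraries 257 and 211. The 6 libraries that carried Oct4, Sox2 or both were all above 200, and the 5 others all below 67. CDH10 rose 3.48-fold with Oct4, 4.95-fold with Sox2 and 3.85-fold with OSK (limma adjusted p = 7.17e-07, 3.08e-08 and 2.70e-07), and fell to 59.6% of GFP with Klf4 (limma adjusted p = 0.00416). The Klf4 call missed the threshold when Klf4 replicate 2 was left out (log2 difference -0.57) or when only the compared lines were fitted.

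CDH4, or R-cadherin, and CDH24, a type II cadherin, both fell with OSK and differed in the other lines when all libraries were fitted. CDH4 was at 374, 597 and 585 normalised counts in GFP, with replicate 1 the lowest, at 212 and 222 with Sox2 and at 281 and 274 with OSK. Oct4 (372 and 473) and Klf4 (436 and 422) overlapped GFP, but only through GFP replicate 1. Without that library CDH4 was also called lower with Oct4 and with Klf4. CDH4 was at 41.8% of GFP in the Sox2 line and at 53.5% in the OSK line (limma adjusted p = 1.51e-05 and 4.51e-04). CDH24 was at 835, 858 and 775 in GFP, at 427 and 435 with Klf4 and at 338 and 366 with OSK. Sox2 libraries (816 and 931) overlapped GFP. CDH24 fell to 52.4% with Klf4 and to 42.8% with OSK (limma adjusted p = 4.81e-07 and 1.45e-08). A smaller fall with Oct4 (669 and 703; log2 difference -0.26, limma adjusted p = 0.0252) missed the threshold in 5 alternative fits, those without GFP replicate 2 or either Oct4 replicate among them.

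CDH17, the liver and intestine cadherin, was lower in every factor line. GFP libraries held 554, 606 and 628 normalised counts, Oct4 353 and 394, Klf4 230 and 265, OSK 106 and 162 and Sox2 70.7 and 72.8. No line's libraries overlapped those of another, so the order GFP, Oct4, Klf4, OSK, Sox2 is also the order of every pair of libraries. Relative to GFP, CDH17 was at 62.6%, 41.5%, 22.5% and 12.0% in that order of factor lines (limma adjusted p = 0.00224, 7.80e-06, 1.30e-08 and 2.25e-10).

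CDH13, or T-cadherin, which is anchored to the membrane by a lipid and has no cytoplasmic tail, moved in both directions. It was at 143, 96.1 and 130 normalised counts in GFP, 264 and 189 with Oct4, 213 and 170 with Sox2, 138 and 123 with Klf4 and 78.1 and 84.7 with OSK. The OSK libraries were the lowest and the Oct4 and Sox2 libraries lay above all others. CDH13 rose 1.84-fold with Oct4 (limma adjusted p = 0.00190) and 1.55-fold with Sox2 (limma adjusted p = 0.0130), and was at 66.1% of GFP with OSK (limma adjusted p = 0.0258). The OSK call was lost without GFP replicate 1 and also without OSK replicate 1, the Oct4 call without Oct4 replicate 1, and the Sox2 call without GFP replicate 2 or without Sox2 replicate 1.

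Lower cadherins gave less firm values. CDH8, a type II cadherin of the nervous system, was at 38.7, 38.4 and 24.3 normalised counts in GFP and at 13.9 and 13.7 with Klf4 (log2 difference -1.20, limma adjusted p = 0.0173); the call was lost without GFP replicate 2 or either Klf4 replicate. CDH3, or P-cadherin, a type I cadherin of the RPE, was at 83.4 in GFP replicate 1 but 25.3 and 22.4 in the other GFP libraries, and at 15.7 and 12.0 with Sox2. CDH23, a component of the tip links of hair cells, was at 83.4, 12.1 and 21.4 in GFP and at 7.85 and 8.56 with Sox2. Both passed with Sox2 (limma adjusted p = 0.0314 and 0.0338), and neither passed without GFP replicate 1 (log2 difference -0.75 and -0.90, limma adjusted p = 0.118 and 0.119) or without either Sox2 replicate. CDH16, CDH22 and CDH26 also passed the filter, and CDH16 and CDH22 had at most 39.7 and 29.8 normalised counts, both in GFP replicate 1. CDH26 was at 20.2 and 21.4 with Sox2 and at most 9.16 in the other libraries but GFP replicate 1 (27.8). The untested cadherins were CDH5, CDH6, CDH7, CDH9, CDH12, CDH15, CDH18, CDH19 and CDH20. Of these, CDH5, the cadherin of endothelium, was at 29.8 in GFP replicate 1 and at most 5.42 elsewhere.

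Of the 8 tested protocadherins outside the clusters, 4 rose and 2 fell with Oct4, 3 and 2 with Sox2, 2 and 1 with Klf4 and 4 and 2 with OSK. The shares of all genes called in either direction were 37.3%, 41.6%, 33.5% and 39.7%. PCDH1 had the largest difference from GFP of any tested member. A delta protocadherin found in airway epithelium among other tissues, it lies on chromosome 5, 141853111 to 141879246 on the minus strand, past the gamma cluster. PCDH1 was at 332, 510 and 439 normalised counts in GFP and at 8821 and 8577 with Klf4. The Oct4 libraries held 1341 and 1347, the OSK libraries 944 and 929 and the Sox2 libraries 811 and 636. Every factor library lay above every GFP library, and the Klf4 libraries lay far above all others. PCDH1 rose 20.4-fold with Klf4 (log2 difference 4.37 ± 0.13 SE, limma adjusted p = 3.88e-12). It rose 3.15-fold with Oct4, 2.19-fold with OSK and 1.69-fold with Sox2 (limma adjusted p = 7.53e-08, 4.36e-06 and 2.21e-04). OSK was at 10.8% of the Klf4 level (log2 difference -3.21, limma adjusted p = 6.92e-10). KLF4 RNA was at 24202 to 24470 normalised counts in the OSK libraries and 22142 to 24205 in the Klf4 libraries.

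The 250 bases before the RefSeq start of PCDH1 (GRCh38.p14, minus strand) are shown because this gene had the largest response to a factor of the KLF family, which binds CACCC boxes. Capitals mark CACCC, found 1 time, and its reverse complement GGGTG, found 3 times. CACCC on either strand occurs in 59.87% of all 35116 RefSeq promoter windows of 300 bases. The matches are a description of the letters, not of binding, and GENCODE 29 places the outermost start of PCDH1 further upstream.
PCDH1 promoter, chr5:141869628-141869877: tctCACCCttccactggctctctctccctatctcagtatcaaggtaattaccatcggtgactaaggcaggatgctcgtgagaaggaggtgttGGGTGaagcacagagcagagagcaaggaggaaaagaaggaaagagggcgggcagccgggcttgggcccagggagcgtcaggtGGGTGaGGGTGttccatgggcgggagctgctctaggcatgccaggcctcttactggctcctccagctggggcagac

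PCDH7, another delta protocadherin, fell in 3 lines. GFP libraries held 2408, 3469 and 3579 normalised counts, with replicate 1 the lowest. The Oct4 libraries held 1025 and 1282, the Sox2 libraries 849 and 924, the OSK libraries 2194 and 1938 and the Klf4 libraries 2769 and 2459. The Klf4 libraries overlapped GFP, the other 6 lay below it. PCDH7 was at 36.6% of GFP with Oct4, 28.1% with Sox2 and 65.5% with OSK (limma adjusted p = 6.50e-07, 3.46e-08 and 0.00295). OSK was 1.79-fold above Oct4 and 2.33-fold above Sox2 (limma adjusted p = 3.13e-04 and 8.74e-06). Without GFP replicate 1 the Klf4 line was also called lower.

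PCDH9 and PCDH18, both delta protocadherins expressed in the nervous system, were higher wherever Oct4 or Sox2 was introduced. PCDH9 was at 98.3, 83.0 and 76.8 normalised counts in GFP, 296 and 309 with Oct4, 371 and 319 with Sox2, 237 and 260 with OSK and 65.9 and 75.4 with Klf4. It rose 3.52-fold, 4.01-fold and 2.89-fold with Oct4, Sox2 and OSK (limma adjusted p = 6.71e-08, 1.69e-08 and 4.26e-07) and did not pass with Klf4 (log2 difference -0.28, limma adjusted p = 0.163). PCDH18 was at 29.8, 34.4 and 32.1 in GFP, 157 and 143 with Oct4, 212 and 271 with Sox2, 61.3 and 64.0 with Klf4 and 70.5 and 91.3 with OSK. Every factor library lay above every GFP library. PCDH18 rose 4.67-fold with Oct4, 7.53-fold with Sox2, 1.95-fold with Klf4 and 2.52-fold with OSK (limma adjusted p = 2.04e-07, 6.92e-09, 0.00117 and 4.91e-05). OSK was at 33.5% of the Sox2 level of PCDH18 (limma adjusted p = 1.74e-05) and at 53.9% of the Oct4 level (limma adjusted p = 0.00282).

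Of 10 neuron markers, 3 were at 10 or more in every library and DCX was below 10 in every library. The neuron marker sum was 3986 to 4470 in GFP, 2678 to 3081 with Oct4, 5667 to 5742 with Sox2, 2977 to 3113 with Klf4 and 8549 to 9339 with OSK. The higher sums with Sox2 and OSK came from MAP2 alone, with means of 5006 and 7896 against 2209 in GFP. Of the 7 tested neuron markers, MAP2 was the 1 that rose in those lines, while 4 fell with Sox2 and 3 with OSK, and 0 rose and 3 fell with Oct4. TUBB3 and SYT1 fell in all 3 of these lines, in which CDH10, PCDH9 and PCDH18 were higher than in GFP. The part of neuron markers in the values of these members was not tested.

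PCDH17 and PCDH19 encode delta protocadherins of the brain. PCDH17 was at 55.6, 33.4 and 46.7 normalised counts in GFP and at 10.5 and 8.01 with Oct4, and at 20.8 and 14.9 with Klf4. It was at 57.2 and 49.7 with Sox2 and at 74.8 and 82.5 with OSK, the highest libraries. PCDH17 was at 20.4% of GFP with Oct4 (limma adjusted p = 4.21e-05) and 39.4% with Klf4 (limma adjusted p = 0.00431, lost without Klf4 replicate 2). A rise with OSK (log2 difference 0.81, limma adjusted p = 0.0477) was lost in 11 alternative fits, including those without GFP replicate 2 or 3 and without either OSK replicate. The OSK libraries were 8.52-fold above the Oct4 libraries (limma adjusted p = 3.18e-06). Exons of PCDH17 overlap another annotated gene, AL445288.1, on 654 bases, as those of PCDH9 overlap the antisense gene PCDH9-AS1 on 144, and whether strand was used in counting is not given in the sources used here. PCDH19 was at 59.6 and 38.5 with OSK, 18.6 and 11.5 with Oct4 and 55.6, 13.2 and 14.6 in GFP. Its difference between OSK and Oct4 (log2 1.65, limma adjusted p = 0.0327) was lost when any Oct4 or OSK replicate was left out. Without GFP replicate 1, PCDH19 was called higher with OSK than in GFP.

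PCDH12, an endothelial protocadherin, was at 46.7, 37.4 and 46.7 normalised counts in GFP and 77.8 and 68.7 with Oct4. The difference (log2 0.74, limma adjusted p = 0.0404) was lost in 8 alternative fits, including those without GFP replicate 2 or 3 and without either Oct4 replicate. Endothelial marker sums were 1110 to 1509 in GFP and 711 to 719 with Oct4, and EMCN was below 2 in every library. Most of the sum was KDR, with means of 1159 in GFP and 692 with Oct4. In GFP replicate 1, TIE1 and VWF were at 112 and 73.5, against at most 4.05 in the other GFP libraries. The part of endothelial markers in the values of PCDH12 was not tested. PCDH20, of which 4.2% of exon bases are free of other annotated genes, had at most 13.2 normalised counts. In the Sox2 libraries PCDH20 had no more than 1 read, so its GFP mean of 10.3 was at least 3.46-fold higher, taking 3 reads per library as the floor. PCDH8, PCDH10, PCDH11X, PCDH11Y and PCDH15 were not tested.

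**Figure D3:**
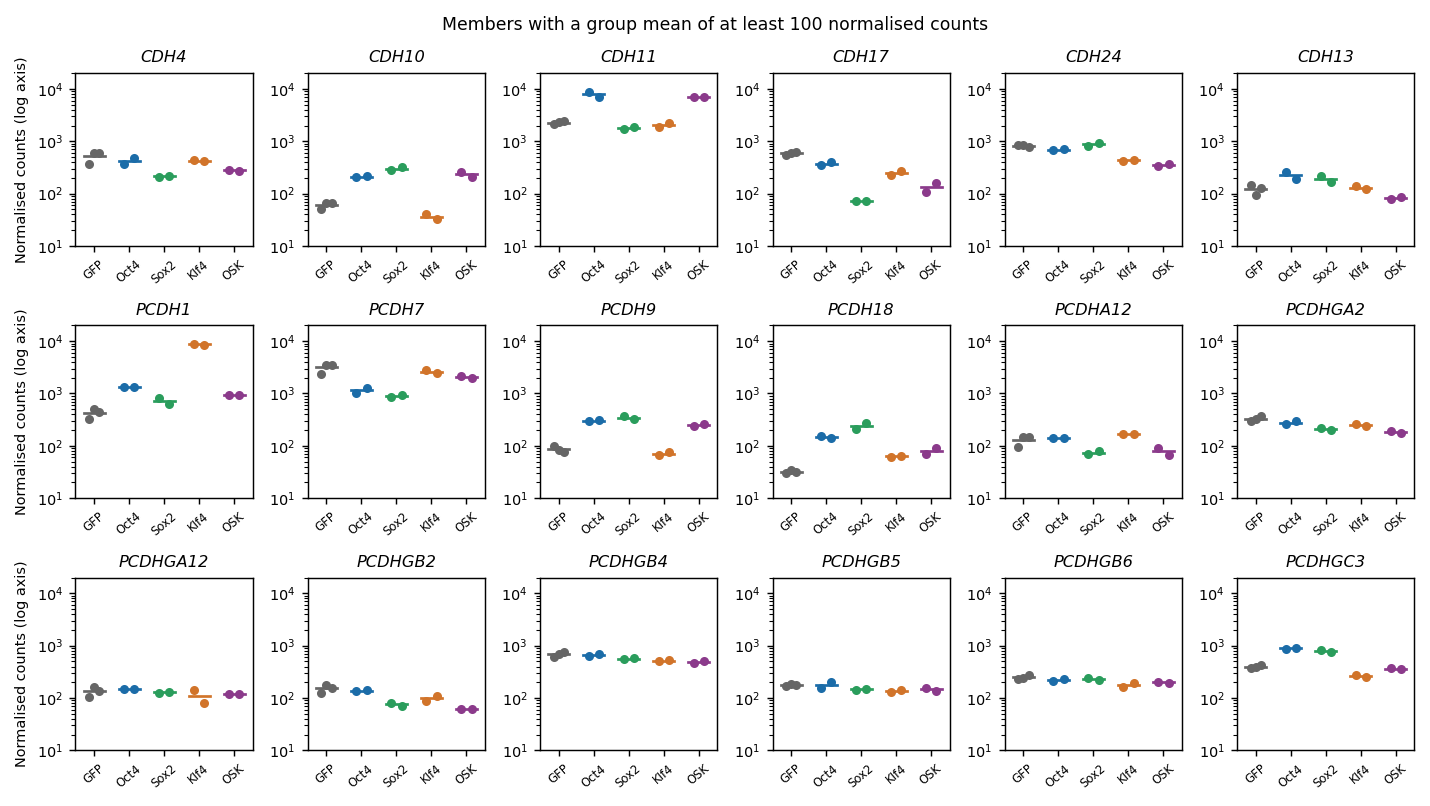
Each panel plots 1 of the 18 members with a mean of at least 100 normalised counts in some line, on a log axis; points are libraries and bars are line means. CDH11 is high in the Oct4 and OSK lines, PCDH1 in the Klf4 line at 8821 and 8577, and CDH17 steps down to 70.7 and 72.8 in Sox2.

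The clustered protocadherins lie side by side on chromosome 5 (GRCh38, GENCODE 29): the alpha cluster at 140786136 to 141012347, the beta cluster at 141051135 to 141249365 and the gamma cluster at 141330571 to 141512981. All 16 alpha and all 22 gamma genes share exon bases with other members. A median of 50.6% of exon bases was free of shared or overlapping sequence per alpha gene, 94.8% per beta gene and 56.2% per gamma gene. How reads in the shared exons were assigned is not given in the sources used here, so values of single alpha and gamma genes are uncertain. PCDHA1, which is annotated with the shared exons, was listed at 0 in all 11 libraries, as was PCDHA14, annotated as a pseudogene.

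The following sequences show why, at the join of the last 25 bases of the variable exon (lower case) and the first 35 bases of the next exon (capitals), read from GRCh38 with GENCODE 29 transcripts on the plus strand. The capitals are identical in the alpha genes shown, from chr5:140978949-140979007, and identical in the gamma genes shown, from chr5:141494807-141494865, so that a read within them names a cluster and not a gene.
PCDHA12: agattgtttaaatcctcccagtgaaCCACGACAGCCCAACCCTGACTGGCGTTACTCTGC
PCDHAC2: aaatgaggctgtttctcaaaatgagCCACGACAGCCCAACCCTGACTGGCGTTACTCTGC
PCDHGA2: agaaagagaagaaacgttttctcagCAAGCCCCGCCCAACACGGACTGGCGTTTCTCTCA
PCDHGB4: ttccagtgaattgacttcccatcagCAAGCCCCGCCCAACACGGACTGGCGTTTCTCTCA
PCDHGC3: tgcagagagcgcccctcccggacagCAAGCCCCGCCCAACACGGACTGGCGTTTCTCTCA

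Clustered genes also resemble each other before their starts, where most carry a conserved element with a CGCT core to which CTCF binds. The pattern searched, on both strands, reads C, any base, C, any 5 bases, G, any base and then CGCT. It was written from these same promoters, so its frequency in them is a description. It was in the RefSeq window (GRCh38.p14, 250 bases before to 50 after the start) of 10 of 13 alpha, 13 of 14 beta and 16 of 20 gamma genes with a window, and in 8.12% of all 35116 windows. It was not found in the windows of PCDHA9, PCDHAC1, PCDHAC2, PCDHB1, PCDHGA1, PCDHGA8, PCDHGB7 and PCDHGC4. The elements of the alpha, beta and gamma genes that the results turn on follow, with the core in capitals, all on the plus strand.
PCDHA12, chr5:140875242-140875273: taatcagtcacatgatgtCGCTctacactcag
PCDHB2, chr5:141094542-141094573: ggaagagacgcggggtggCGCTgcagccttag
PCDHB14, chr5:141223261-141223292: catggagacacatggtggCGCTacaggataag
PCDHGA2, chr5:141338701-141338732: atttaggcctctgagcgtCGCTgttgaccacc
PCDHGB4, chr5:141387615-141387646: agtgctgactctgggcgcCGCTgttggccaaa
PCDHGB5, chr5:141397861-141397892: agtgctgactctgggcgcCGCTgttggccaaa
PCDHGC3, chr5:141475878-141475909: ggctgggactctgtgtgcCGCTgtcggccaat
The 32 bases shown are the same in PCDHGB4 and PCDHGB5.

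The alpha cluster was low and rested on few genes. Only 6 of its 16 genes were tested (PCDHA9, PCDHA10, PCDHA11, PCDHA12, PCDHAC1 and PCDHAC2), and PCDHA12 made up 47.2% of the cluster's sum in GFP and PCDHAC2 17.4%. The sum over the 16 genes was 278 ± 13.2 normalised counts in GFP (SD, n = 3), 214 ± 1.07 with Oct4, 129 ± 10.6 with Sox2, 326 ± 36.1 with Klf4 and 175 ± 37.6 with OSK (n = 2 each). The Sox2 libraries were the lowest of all and the Klf4 libraries the highest. With 3 libraries against 2 an exact permutation test cannot go below 0.1, so no test is given for sums.

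With Sox2, 5 of the 6 tested alpha genes fell and none rose, against 19.9% of all genes called lower. PCDHA9, PCDHA10 and PCDHA11 were below 10 in both Sox2 libraries and passed the filter only through other lines. The count therefore describes the tested genes and supports nothing further. PCDHA12 was at 96.3, 150 and 148 normalised counts in GFP, 69.6 and 78.8 with Sox2, 91.1 and 67.1 with OSK, 144 and 143 with Oct4 and 170 and 165 with Klf4. It was at 56.5% and 60.2% of GFP in the Sox2 and OSK lines (limma adjusted p = 0.00472 and 0.00993), and the OSK libraries were at 47.3% of the Klf4 libraries (limma adjusted p = 0.00188). PCDHAC2, a C-type gene at the end of the cluster, was at 42.7, 54.6 and 47.6 in GFP, 17.95 and 17.98 with Sox2, 29.03 and 34.3 with Oct4, 59.6 and 31.9 with OSK and 111 and 83.4 with Klf4. It was at 37.2% of GFP with Sox2 (limma adjusted p = 0.00126) and rose 2.01-fold with Klf4 (limma adjusted p = 0.0162), the latter lost without Klf4 replicate 1. Klf4 libraries were the highest for both PCDHA12 and PCDHAC2. PCDHA9, PCDHA10 and PCDHA11 lay between 15.2 and 24.3 in the GFP libraries and between 1.12 and 8.56 with Sox2, and the first pair also fell with Oct4.

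The summed counts of the beta cluster were lower than GFP in every factor line, although few single genes passed. The sum over 16 genes was 411 ± 56.8 normalised counts in GFP (SD, n = 3), 283 ± 17.5 with Oct4, 230 ± 12.8 with Sox2, 248 ± 24.9 with Klf4 and 172 ± 14.9 with OSK (n = 2 each), or 68.9%, 56.0%, 60.5% and 41.9% of GFP. GFP libraries were at 347, 455 and 430, with replicate 1 the lowest, and no factor library exceeded 295. Of the 10 tested genes, 1, 3, 1 and 7 fell with Oct4, Sox2, Klf4 and OSK and none rose. Over all genes, 17.2%, 19.9%, 16% and 20% were called lower, so the shares called with Oct4 and Klf4 were below those of all genes. The OSK count depended on OSK replicate 1: without it 3 of 10 fell, and without it and GFP replicate 1 it was 5 of 10. Without GFP replicate 1 alone, 2, 5, 4 and 6 of 10 fell in the same order of lines. Of the genes called with Sox2, PCDHB2 and PCDHB10 missed the threshold without GFP replicate 2 or 3. PCDHB10, the gene called with Klf4, missed it there in the same fits. Without Sox2 replicate 2, which leaves that line 1 library, the log2 difference of PCDHB13 was -0.96.

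Single beta genes were low. PCDHB6 was at 45.7, 69.8 and 70.0 normalised counts in GFP and 18.4 and 26.4 with OSK, or 36.3% of GFP (limma adjusted p = 8.62e-04). PCDHB13 was at 32.8, 45.5 and 43.7 in GFP, 20.2 and 11.1 with Sox2 and 10.8 and 14.3 with OSK, or 30.9% of GFP with OSK (limma adjusted p = 0.00303). PCDHB2 was at 52.6, 92.1 and 105, and at 31.4 and 35.2 with OSK (log2 difference -1.24, limma adjusted p = 0.00634). In all of these the OSK libraries lay below every GFP library. PCDHB12 was at 35.4% of GFP with OSK (limma adjusted p = 0.00505); without OSK replicate 1 neither PCDHB2 nor PCDHB12 passed with OSK. PCDHB14 was at 58.6, 56.7 and 64.2 in GFP and at 26.7 and 33.2 with Oct4 (50.1% of GFP, limma adjusted p = 0.0151), a call lost without Oct4 replicate 1. PCDHB10 passed with Sox2 and Klf4 (limma adjusted p = 0.0279 and 0.0406), and lost both calls without GFP replicate 2 or 3, or without either replicate of the factor line. PCDHB7 and PCDHB11 had at most 3 reads in each OSK library, so their GFP means, 14.2 and 19.3, were at least 4.33-fold and 5.89-fold higher. Both passed the filter only through lines other than OSK. PCDHB7 did not pass across all 5 lines (limma F test, adjusted p = 0.0839).

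In the gamma cluster the largest rise was in the C-type gene PCDHGC3. PCDHGC3, known for broad expression outside the nervous system, was at 373, 390 and 435 normalised counts in GFP. It was at 876 and 908 with Oct4, 812 and 768 with Sox2, 270 and 253 with Klf4 and 374 and 359 with OSK. The Oct4 and Sox2 libraries lay above all others, the Klf4 libraries below all others, and OSK overlapped GFP. PCDHGC3 rose 2.23-fold with Oct4 (log2 difference 1.16 ± 0.09 SE, limma adjusted p = 4.64e-08) and 1.98-fold with Sox2 (0.98, limma adjusted p = 2.33e-07), and was at 65.3% of GFP with Klf4 (limma adjusted p = 6.40e-05). With OSK it did not pass (log2 difference -0.12, limma adjusted p = 0.313), and OSK was at 41.1% of Oct4 and 46.4% of Sox2 (limma adjusted p = 3.90e-08 and 1.86e-07). OSK was 1.40-fold above Klf4 (limma adjusted p = 0.00178).

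No other tested gamma gene was called higher than GFP in any line, although PCDHGA10 passed with Oct4 and OSK without GFP replicate 1. PCDHGB4 was at 604, 704 and 758 normalised counts in GFP, 647 and 682 with Oct4, 564 and 572 with Sox2, 507 and 527 with Klf4 and 474 and 517 with OSK. It was at 82.5%, 75.0% and 71.9% of GFP with Sox2, Klf4 and OSK (limma adjusted p = 0.0318, 0.00345 and 8.81e-04). PCDHGA2 was at 64.2%, 75.1% and 56.5% of GFP in the same lines (limma adjusted p = 4.75e-04, 0.0157 and 4.87e-05). PCDHGB2 was at 127, 176 and 154 in GFP, 80.8 and 70.2 with Sox2, 87.9 and 110 with Klf4 and 62.9 and 60.5 with OSK. Its levels were 49.6%, 64.9% and 40.5% of GFP (limma adjusted p = 2.99e-04, 0.0146 and 2.95e-05), and its Oct4 libraries (138 and 140) overlapped GFP. PCDHGB6 passed with Klf4 alone of the comparisons with GFP (72.7%, limma adjusted p = 0.00922) and PCDHGB5 likewise (76.6%, limma adjusted p = 0.0487), while PCDHGA12 passed in none of them. The PCDHGB5 call was lost without GFP replicate 1 or OSK replicate 1, and that of PCDHGB6 without Klf4 replicate 1. PCDHGB6 also passed with OSK when GFP replicate 1 was left out. With Klf4, PCDHGB2 was also lost without GFP replicate 2 or Klf4 replicate 1, and PCDHGA2 without GFP replicate 3 or Klf4 replicate 2. PCDHGA6 was at 36.7, 29.3 and 37.9 in GFP and 17.3 and 12.1 with OSK (limma adjusted p = 0.0241), a call lost without OSK replicate 2 or GFP replicate 3.

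Leaving out PCDHGC3, the gamma sum was 1920 ± 151 normalised counts in GFP (SD, n = 3), 1858 ± 118 with Oct4, 1517 ± 1.05 with Sox2, 1431 ± 16.9 with Klf4 and 1347 ± 9.99 with OSK (n = 2 each). The Sox2, Klf4 and OSK libraries lay below every GFP library. PCDHGC3 made up 17.2% of the whole gamma sum in GFP, 32.4% with Oct4, 34.3% with Sox2, 15.4% with Klf4 and 21.4% with OSK. Of the 15 tested gamma genes, 1 rose with Oct4 and 1 with Sox2, in both cases PCDHGC3, and 0, 3, 7 and 4 fell with Oct4, Sox2, Klf4 and OSK. Over all genes 17.2%, 19.9%, 16% and 20% were called lower, a share that the counts with Sox2 and OSK lay near. The remaining C-type genes, PCDHGC4 and PCDHGC5, had at most 16 and 31.8 normalised counts. PCDHGC5 was called lower with Klf4 (limma adjusted p = 0.0471), but not without GFP replicate 1 or OSK replicate 1.

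**Figure D4:**
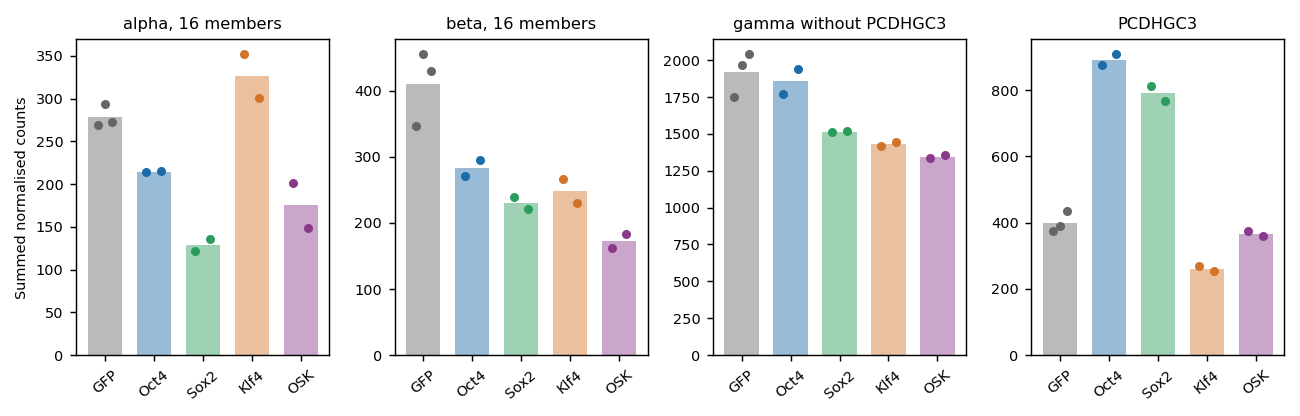
Bars are line means and points libraries for the summed normalised counts of the alpha and beta clusters, of the gamma cluster without PCDHGC3, and for PCDHGC3 itself. PCDHGC3 stands highest in Oct4 and Sox2, while the beta cluster is highest in GFP and lowest in OSK at 172.

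**Figure D5:**
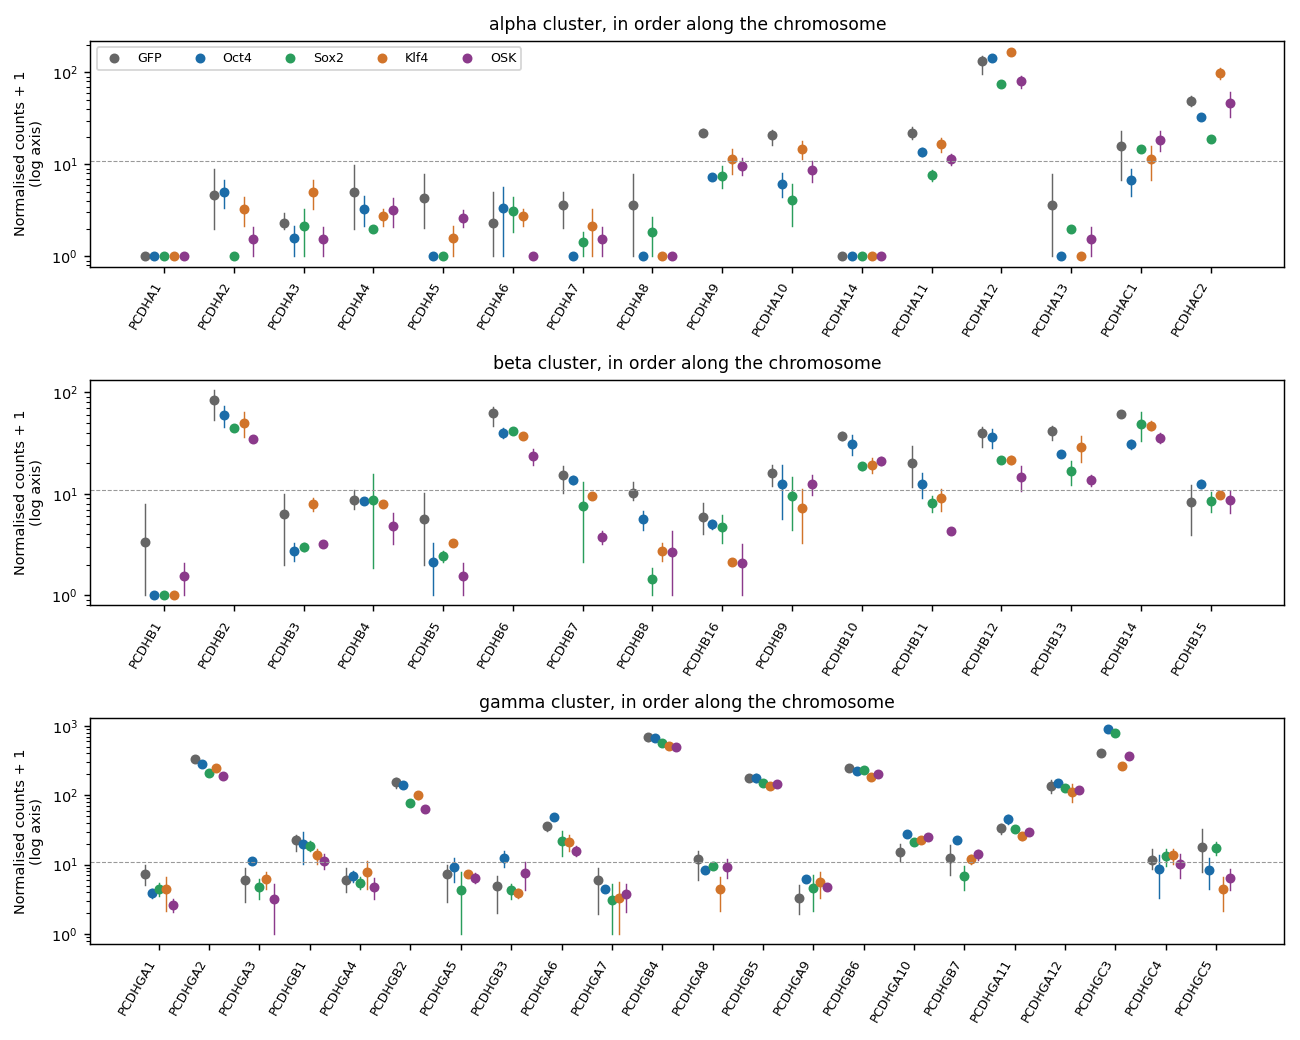
Normalised counts + 1 on a log axis for all clustered genes, in their order along chromosome 5; points are line means, lines span the libraries and the dashed line marks 10 normalised counts. Most alpha genes lie below the dashed line, and the tallest gamma points are PCDHGB4 and PCDHGC3.

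OSK was next compared with each factor alone. Against Oct4, 3 members were higher and 14 lower, with 40.3% of all genes called. Against Sox2, 4 were higher and 8 lower (40.5% of all genes called), and against Klf4, 5 were higher and 9 lower (21.5%, of which 9.56% higher and 11.9% lower). For CDH11 the OSK libraries lay just below the Oct4 libraries, at 7057 and 6994 against 8626 and 7088. That difference did not pass (log2 difference -0.15, limma adjusted p = 0.248). CDH11 with OSK was 3.89-fold above Sox2 and 3.42-fold above Klf4 (limma adjusted p = 3.91e-10 and 5.94e-09). For CDH24 OSK lay below all 3 single-factor lines, at 51.4% of Oct4, 40.3% of Sox2 and 81.7% of Klf4 (limma adjusted p = 5.84e-07, 1.74e-08 and 0.0366), the last lost without OSK replicate 1. CDH13 was at 36.0% of Oct4 and 42.5% of Sox2 (limma adjusted p = 3.94e-05 and 2.13e-04). For CDH17 OSK lay between Sox2 and Klf4. Without OSK replicate 1, 13, 7 and 9 members were called against Oct4, Sox2 and Klf4.

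Among the single factors, Oct4 against Sox2 gave 11 higher and 3 lower members (33.4% of all genes called). CDH17 was 5.21-fold and CDH11 4.35-fold higher with Oct4, while PCDH17 was at 17.3% of the Sox2 level (limma adjusted p = 1.82e-08, 2.85e-10 and 3.70e-05). Oct4 against Klf4 also gave 11 higher and 3 lower (41.7% of all genes called), with PCDH1 at 15.5% of the Klf4 level (limma adjusted p = 6.28e-10). Among the higher members, CDH10 was at 5.84-fold and PCDH9 at 4.28-fold (limma adjusted p = 2.72e-08 and 2.59e-08). Sox2 against Klf4 gave 8 higher and 7 lower (40.8% of all genes called, 20.1% higher and 20.7% lower). In that pair CDH10 was 8.31-fold higher with Sox2, and PCDH1 was at 8.32% and PCDHAC2 at 18.5% of the Klf4 level (limma adjusted p = 3.12e-09, 2.28e-11 and 1.92e-05).

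Scaled per kilobase of exon not shared with other genes, the leading member differed between lines. In GFP, PCDHGB4 had a mean of 280 normalised counts per kilobase, PCDH7 257 and CDH24 219; the libraries of the leading pair overlapped (246 to 308 and 197 to 292). CDH11 led with Oct4 at 599 and with OSK at 535, clear of PCDHGC3 at 274 and PCDHGB4 at 201 respectively. PCDH1 led with Klf4 at 1470, clear of PCDH7 at 213. With Sox2, PCDHGC3 had a mean of 243 (libraries 236 and 250), CDH24 233 (218 and 248) and PCDHGB4 231 (230 and 233). The range of CDH24 overlapped both others, while the PCDHGC3 libraries lay above those of PCDHGB4. Any shared-exon reads counted toward a clustered gene would make its value per kilobase too high. How such reads were assigned is not given in the sources used here.

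The partners of these proteins and the machinery of the clustered locus were counted from lists. Of 14 tested catenins and cadherin adaptors, 4 rose and 5 fell with Oct4, 8 and 4 with Sox2, 1 and 4 with Klf4 and 2 and 8 with OSK. For this and the next list, 20.1%, 21.7%, 17.6% and 19.7% of all genes were called higher and 17.2%, 19.9%, 16% and 20% lower. CTNNB1, or beta-catenin, which binds the classical tail, had a mean of 6774 normalised counts in GFP and 15990 with Sox2 (log2 difference 1.24, limma adjusted p = 1.96e-10). VCL, or vinculin, which joins junctions to actin, went from 9077 to 30960 with Sox2 (1.78, limma adjusted p = 2.81e-09). ARVCF, a catenin of the p120 family, went from 2204 to 702.5 with OSK (-1.64, limma adjusted p = 5.82e-09). Of 24 regulators of the clustered locus, 5 rose and 6 fell with Oct4, 5 and 6 with Sox2, 4 and 6 with Klf4 and 5 and 7 with OSK, all within 10 percentage points of those shares. CTCF passed in none of these (means of 1150 in GFP and 991 to 1227 elsewhere), and DNMT3B, a de novo DNA methyltransferase, fell by 1.10 with Sox2 (391.6 to 179.8, limma adjusted p = 1.49e-05).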

How the data were processed

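The authors deposited normalised counts per gene for each library, a signal that is gene counts divided by a factor per library (the factor was read from the values: they are whole multiples of a step, within a tolerance of 0.0061). In GFP replicates 1 and 2 the step is close to 1. STAR 2.7.1a and featureCounts 1.6.2 are named, per the submitters' processing notes, without settings; the human build named there is GRCh38, and GENCODE 29 and RefSeq GRCh38.p14 were used here for exons and promoters. Whole reads were recovered from the steps (100% of values came out whole) for depth and for the count tests. On these reads, edgeR called 6774, 7834, 6048 and 7232 genes in the Oct4, Sox2, Klf4 and OSK lines against GFP.

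Genes at 10 or more in at least 2 libraries (18828) were tested with limma 3.58.1 (trend, Benjamini-Hochberg adjustment over all genes) on log2(value + 1), with all 11 libraries in the fit (residual degrees of freedom 6) and 10 pairwise comparisons plus an F test. A log2 difference on this scale understates the change of low genes; folds are ratios of mean values. The script was tested on simulated data. Alternatives used edgeR 4.0.16 and DESeq2 1.42.0 on recovered reads, other pseudocounts, filters and scalings, a replicate block and each library left out.

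Named are PCDHGC3, every member with a mean of at least 100 in a line, and in each comparison the called members with the largest differences (up to 10 each way against GFP, 5 otherwise) with a mean of at least 30 and no overlap of libraries. Some others are named beside them, chosen after their values were seen. The members and lists were chosen with earlier results of these data known. No library was counted as a duplicate of another.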

Additional observations from a re-analysis of the deposited data

How the results depend on the processing

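Counts of called members moved by more than 1.5 times only when a library was left out, and the cause was not tested. The ranges that follow cover only the fits with 1 library left out. With Sox2 against GFP, 24 members became 13 to 24, lowest without Sox2 replicate 1. For OSK against Sox2, 12 became 7 to 17, lowest without OSK replicate 1. For OSK against Klf4, 14 became 8 to 15, with 9, 9, 9 and 8 without Klf4 replicate 1, Klf4 replicate 2, OSK replicate 1 and OSK replicate 2. The other comparisons ranged from 10 to 18 (Oct4 against GFP), 11 to 20 (Klf4), 17 to 25 (OSK), 13 to 22 (OSK against Oct4), 10 to 18 (Oct4 against Sox2 and against Klf4) and 12 to 21 (Sox2 against Klf4), and the F test from 25 to 32. A line left with 1 library was assumed to vary like the others. Among 113 named differences, 2236 of 2373 alternative values kept direction and call, 137 (in 34 differences) kept direction but lost the call, and 0 reversed.

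Replicate numbers showed no general pairing of the libraries: of 20 pairs of deviations 2 correlated above 0.1 (range -0.07 to 0.44). Deviations were taken from line means, so those of a line with 2 libraries mirror each other. The 20 pairs are therefore not separate checks. Both join GFP and OSK libraries (0.44 for replicates 1, the libraries that stand apart, and 0.31 for replicates 2), the comparison in which the block took 24 calls to 18. With the replicate block, 12, 21, 12 and 18 members were called with Oct4, Sox2, Klf4 and OSK against GFP. The remaining counts with the block were 17, 11 and 14 for OSK against Oct4, Sox2 and Klf4, 13, 15 and 17 among the single factors, and 26 across all 5 lines. Depth limits the 37 untested members and the low beta genes, for which a missed threshold does not show equal levels.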

Other observations

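E-cadherin and N-cadherin, left out of the members, moved as follows. CDH1 was at 200, 259 and 245 normalised counts in GFP and at 71.6 and 47.3 with OSK, where it fell by 1.98 on the log2 scale (limma adjusted p = 1.07e-07). With Sox2 it was at 328 and 315 (log2 difference 0.46, limma adjusted p = 0.036). CDH2 had a mean of 5834 in GFP and 10780 with Sox2 (0.89, limma adjusted p = 1.66e-06). It fell by 1.04 with Klf4 and by 1.04 with OSK (limma adjusted p = 5.27e-07 and 3.68e-07).

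Of 19 tested genes of the wider superfamily (FAT, DCHS, CELSR, CLSTN and CDHR genes with RET, CDH1 and CDH2), 5 rose and 1 fell with Oct4, 4 and 2 with Sox2, 3 and 5 with Klf4 and 0 and 7 with OSK. Over all genes, 20.1%, 21.7%, 17.6% and 19.7% were called higher and 17.2%, 19.9%, 16% and 20% lower. CLSTN2, a calsyntenin of synapses, was lower in all 4 factor lines, with a mean of 32580 in GFP and 13000 with OSK (log2 difference -1.32, limma adjusted p = 8.83e-09). CELSR1, a planar polarity cadherin, rose with Oct4, Sox2 and Klf4 (log2 differences 0.56, 0.81 and 0.81, limma adjusted p = 0.00189, 5.93e-05 and 9.51e-05). With OSK it fell by 0.47 (limma adjusted p = 0.00632). CDHR5, a cadherin of the brush border, had means of 101.6 in GFP, 238.0 with Klf4 and 27.56 with Sox2 (limma adjusted p = 0.00137 and 4.04e-05).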
